A study of Mus musculus with 4 samples.

Results

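The genes described here encode the Wnt pathway from the outside of the cell to the nucleus: the Wnt ligands, their Frizzled receptors and co-receptors, the R-spondins with their receptors, the ubiquitin ligases that remove Frizzled from the surface, the secreted antagonists, the destruction complex, beta-catenin and the TCF/LEF transcription factors. A rule on gene symbols picked them, which gave 58 of the 25413 genes in the count table. Earlier results of these data were known when this set was chosen. Transcripts were measured by stranded polyA RNA-seq in EpH4 cells, a mouse mammary epithelial line, of wild-type genotype and grown in 2D. The groups were cells given PM2.5 (fine airborne particles) and untreated Control cells, with 2 libraries each and a single batch value for all 4. The labels give no dose and no exposure time, and they do not say that the libraries of a group came from separate cultures, so p-values measure the spread between these libraries, which may be technical.

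In the canonical pathway, a Wnt ligand binds a Frizzled receptor together with Lrp5 or Lrp6. This stops a complex built on Axin and Apc from marking beta-catenin for degradation, and beta-catenin then enters the nucleus and acts with TCF/LEF factors on target genes such as Axin2. In the mammary gland the pathway is known for its part in placode formation, duct branching and stem cell maintenance. Wnt5a is best known for signalling that does not run through beta-catenin.

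Total counts were 20232277 and 18548478 in the PM2.5 libraries and 19562930 and 26206329 in the Control libraries, and 12478 genes passed a filter on low counts and were tested. Several defining transcripts of epithelium were missing in both groups. Of 13 epithelial markers, 12 averaged below 1 CPM, the count scaled to library size, and Epcam, Krt18, Krt19, Krt5, Cldn4 and Esrp1 had 0 counts in all libraries. The basal keratin gene Krt14 was the exception, with 20.7 and 18.6 CPM in PM2.5 libraries and 53.1 and 51.0 CPM in Control libraries. It carried the epithelial sum, which was 20.9 to 22.0 CPM in PM2.5 libraries and 51.5 to 53.5 CPM in Control libraries. Other epithelial transcripts went the other way at low counts: Grhl2, an epithelial transcription factor, had 12 and 19 counts in PM2.5 libraries and 2 and 6 in Control libraries (log2 fold change 2.10, adjusted p = 0.0168 in edgeR and 0.115 in DESeq2; 0.169 in edgeR without PM2.5 replicate 2 and 0.0739 without Control replicate 1), and the keratin gene Krt8, not tested, had 9 and 20 counts in PM2.5 libraries and 1 and 3 in Control libraries. Of 8 mammary luminal and basal markers 5 averaged below 1 CPM. Gata3 had 91.3 and 94.6 CPM in PM2.5 libraries and 98.0 and 94.1 CPM in Control libraries and was not called. Esr1 had 17.8 and 19.5 CPM in PM2.5 libraries and 15.1 and 13.9 CPM in Control libraries (log2 fold change 0.37, adjusted p = 0.0180 in edgeR). Of 10 fibroblast or mesenchymal markers 8 were tested, and their sum was 3940 to 4107 CPM in PM2.5 libraries and 4903 to 5086 CPM in Control libraries, with 3 of them higher and 4 lower. The sum of 5 adipocyte markers was 4.58 to 6.25 CPM in PM2.5 and 1.89 to 2.33 CPM in Control, with Adipoq at 0. Its members went opposite ways: Fabp4 was higher (log2 fold change 3.43) and Pparg lower (-2.30, adjusted p = 0.00165). The sum of 5 T cell markers was 1.84 to 2.23 CPM in PM2.5 and 0.105 to 0.349 CPM in Control, and Cd3g was the only one called, with Cd3e, Cd3d and Cd8a at 0. Macrophage markers summed to 68.0 to 75.4 CPM in PM2.5 libraries and 64.9 to 75.3 CPM in Control libraries. Of the 7 listed, 3 were tested and only Cd68 was called. It had 9.02 and 10.3 CPM in PM2.5 libraries and 3.63 and 4.23 CPM in Control libraries (log2 fold change 1.28, adjusted p = 0.000163 in edgeR). The part of these shifts in the Wnt results was not tested, and in bulk RNA fewer cells of a type and less RNA per cell cannot be told apart.

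The largest rise among the tested Wnt genes was that of Lef1, and the largest falls were those of Sfrp2 and Wnt10b. Promoter sequences of these 3 genes are shown because they had the largest rise and the largest falls, and because a TCF/LEF core (CTTTGA) or an aryl hydrocarbon receptor core (GCGTG) can be looked for in them. Each covers 250 bases before and 50 after a RefSeq start on the GRCm38 build, 5′ to 3′ on the gene's strand, with capitals marking either core on either strand. RefSeq lists 4 starts for Lef1, of which the most upstream and the most downstream are given. The Lef1 regions are chr3:131110047-131110346 and chr3:131156044-131156343 on the plus strand. The Sfrp2 region is chr3:83766071-83766370 on the plus strand, and the Wnt10b region is chr15:98778101-98778400 on the minus strand.
Lef1, upstream start: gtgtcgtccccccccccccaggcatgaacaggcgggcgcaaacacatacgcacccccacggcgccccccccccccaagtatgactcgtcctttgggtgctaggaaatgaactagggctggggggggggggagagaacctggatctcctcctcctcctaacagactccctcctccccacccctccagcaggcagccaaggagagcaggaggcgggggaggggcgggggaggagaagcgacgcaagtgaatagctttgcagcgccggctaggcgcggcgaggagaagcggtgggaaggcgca
Lef1, downstream start: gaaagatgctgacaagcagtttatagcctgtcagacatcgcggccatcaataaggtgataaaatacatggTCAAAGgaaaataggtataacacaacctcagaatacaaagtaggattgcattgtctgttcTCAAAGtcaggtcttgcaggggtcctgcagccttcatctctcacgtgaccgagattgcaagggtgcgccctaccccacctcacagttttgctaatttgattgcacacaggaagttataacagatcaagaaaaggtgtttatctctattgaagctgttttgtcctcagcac
Sfrp2: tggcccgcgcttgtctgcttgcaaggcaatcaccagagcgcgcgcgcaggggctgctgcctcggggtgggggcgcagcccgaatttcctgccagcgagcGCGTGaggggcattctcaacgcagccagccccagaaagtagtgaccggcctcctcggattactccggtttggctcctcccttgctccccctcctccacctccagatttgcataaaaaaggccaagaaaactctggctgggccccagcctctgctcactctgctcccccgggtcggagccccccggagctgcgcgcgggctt
Wnt10b: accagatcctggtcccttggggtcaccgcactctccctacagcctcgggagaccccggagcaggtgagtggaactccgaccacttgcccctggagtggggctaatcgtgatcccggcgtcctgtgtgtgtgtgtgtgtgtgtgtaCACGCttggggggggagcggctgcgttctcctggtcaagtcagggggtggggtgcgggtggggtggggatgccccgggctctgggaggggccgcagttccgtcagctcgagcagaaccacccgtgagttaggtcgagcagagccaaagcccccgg
The downstream Lef1 start held 2 TCF/LEF cores, both as the reverse complement, and the upstream start held none of either core. The Lef1 starts not shown also held none of either core. Sfrp2 and Wnt10b each held 1 aryl hydrocarbon receptor core. RefSeq promoters were matched for 37 of the 58 genes, 47 promoters in all. The TCF/LEF core was found in 5 of these 47 (10.6%), against 16.0% of all 32851 promoters. The receptor core was found in 23 of the 47 (48.9%), against 32.4% of all. A match is a description of letters, not a binding site. The files do not show which Lef1 start the reads came from.

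Of the 58 genes, 28 were tested, 19 had counts but fell below the filter, and 11 had 0 counts in every library. The filter keeps a gene that is high enough in either group, so the tested genes do not stand for all 58. At an adjusted p below 0.05 in edgeR's quasi-likelihood test, 17 of the 28 changed. This is 60.7%, against 39.6% of all genes tested. Higher in PM2.5 were 9 of the 28 (32.1%), against 19.2% of all genes tested, and 8 of the 28 (28.6%) were lower, against 20.4%. The difference between these shares was not tested. Scaling to library size only gave 24.8% of all genes higher and 15.1% lower, with 10 Wnt genes higher and 7 lower. Lef1, Fzd8, Wnt9a and Fzd6 were higher by more than 2-fold and Sfrp2 was lower by more than 2-fold, changes found in 4.6% and 1.17% of all genes tested. The median log2 fold change of the 28 was 0.15, against 0.01 over all genes tested, and the median size regardless of sign was 0.41, against 0.21. The groups did not overlap, with both PM2.5 libraries above or below both Control libraries, for 24 of the 28. With 2 libraries a group, this held for 71.0% of all genes tested.

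**Figure D1:**
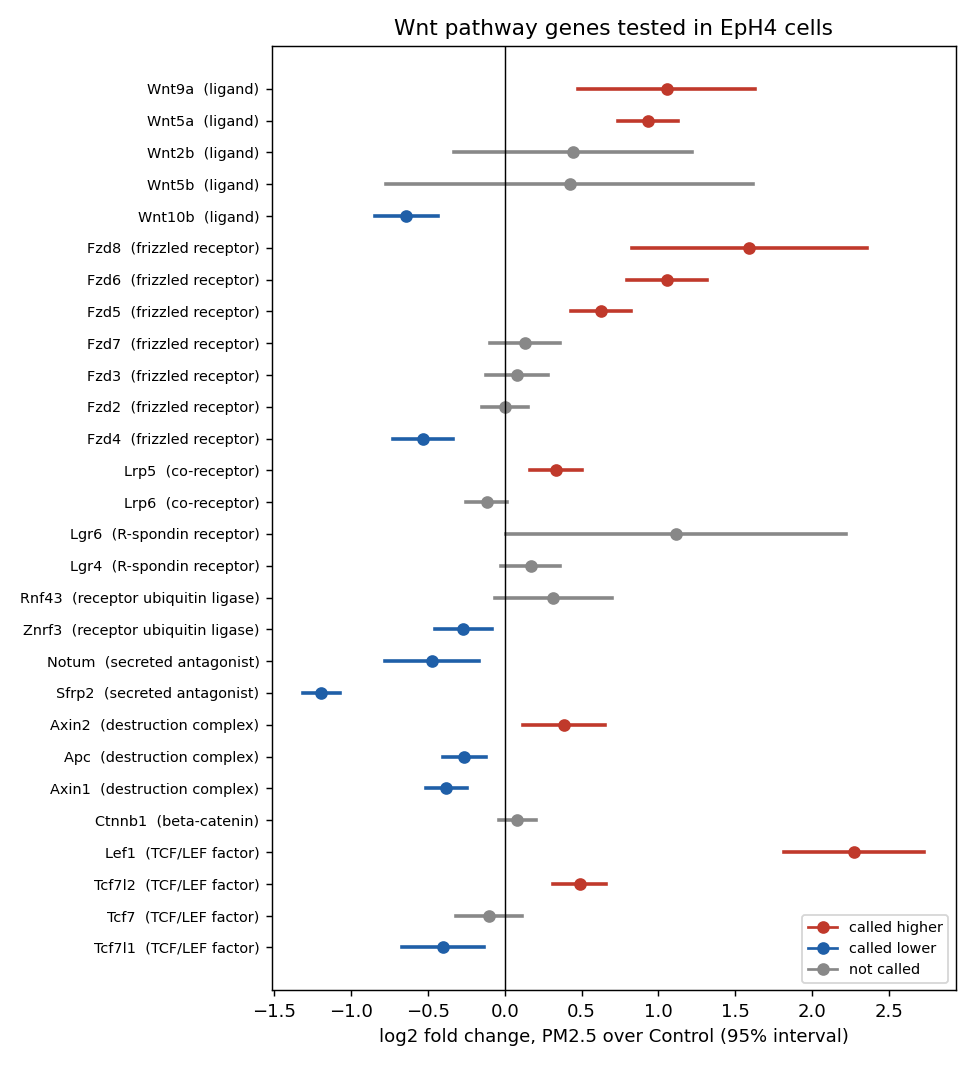
Log2 fold change of PM2.5 over Control with its 95% interval for the 28 tested Wnt pathway genes, grouped by role. Lef1 lies farthest to the right at 2.27 and Sfrp2 farthest to the left at -1.19, while beta-catenin (Ctnnb1) lies at 0.08 with an interval that spans 0.

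Wnt ligand transcripts shifted away from Wnt10b and towards Wnt5a. Wnt10b, a ligand of the canonical pathway that marks the embryonic mammary line, had 26.5 and 32.0 CPM in PM2.5 libraries, against 45.1 and 45.7 CPM in Control libraries. Both PM2.5 libraries lay below both Control libraries, and the log2 fold change was -0.64 (standard error 0.09, adjusted p = 0.0004009 in edgeR). Wnt10b lies on chromosome 15, 98668593 to 98676031, minus strand, on GRCm39. Wnt5a had 41.3 and 40.5 CPM in PM2.5 libraries, against 19.8 and 22.8 CPM in Control libraries. Here both PM2.5 libraries were the higher, with a log2 fold change of 0.93 (standard error 0.09, adjusted p = 2.79e-05 in edgeR). Wnt5a lies on chromosome 14, 28226707 to 28249405, plus strand. Wnt9a, a ligand known from joint formation, was scarcer, with 3.49 and 3.16 CPM in PM2.5 libraries and 1.21 and 1.90 CPM in Control libraries. Its log2 fold change was 1.05 (standard error 0.26, adjusted p = 0.00896 in edgeR), and the groups did not overlap. The call on Wnt9a ended with DESeq2 (adjusted p = 0.0606) and when the authors' wider count, total gene reads, was used (log2 fold change 0.50, adjusted p = 0.15).

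RPKM, which divides counts by transcript length and library size, allows the ligands to be compared with each other. Wnt10b had 6.56 and 7.96 RPKM in PM2.5 libraries and 11.02 and 11.19 RPKM in Control libraries. Wnt5a had 4.95 and 4.88 RPKM in PM2.5 libraries and 2.34 and 2.70 RPKM in Control libraries. Wnt10b was thus the more abundant ligand transcript in all 4 libraries. The RPKM of all 19 ligands summed to 13.2 and 14.3 in PM2.5 libraries and to 14.3 and 14.96 in Control libraries. Wnt10b held 49.7% and 55.8% of that sum in PM2.5 libraries, against 77.0% and 74.8% in Control libraries. Wnt5a held 37.5% and 34.2% in PM2.5 libraries, against 16.3% and 18.1% in Control libraries. These shares are given as values, since with 2 libraries a group an exact permutation test cannot go below p = 0.333. Wnt9a came to 6.69% and 5.64% of the sum in PM2.5 libraries and to 2.11% and 3.18% in Control libraries.

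**Figure D2:**
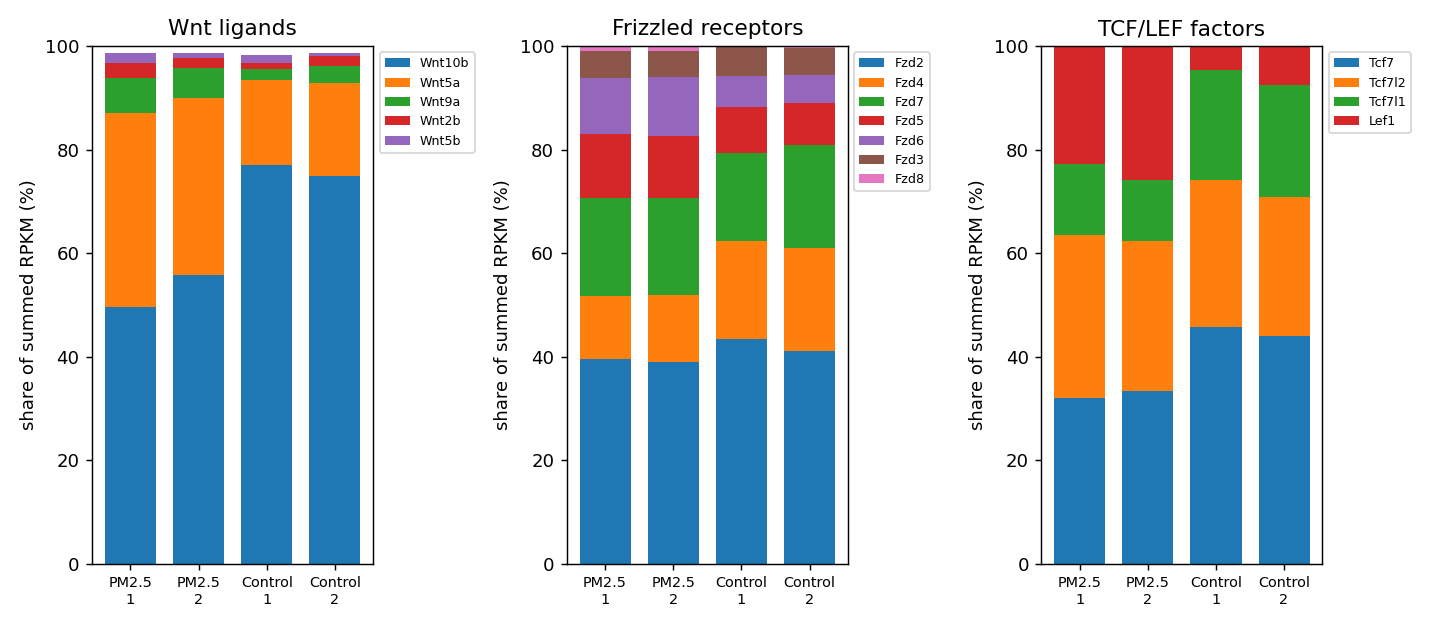
Share of the summed RPKM of Wnt ligands, of Frizzled receptors and of TCF/LEF factors held by each gene, in percent, for each library. Genes with fewer than 20 counts in all are not drawn, so the ligand bars stop short of 100; the Wnt10b share is 49.7% and 55.8% in PM2.5 libraries and 77.0% and 74.8% in Control libraries, and the Lef1 share of the TCF/LEF sum is 22.7% and 25.9% in PM2.5 libraries and 4.67% and 7.60% in Control libraries.

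The other ligands were scarce. A count of 3 in a library, taken as the floor, equalled 0.116 to 0.158 CPM. Wnt2b had 1.503 and 1.16 CPM in PM2.5 libraries and 0.736 and 1.16 CPM in Control libraries, with a log2 fold change of 0.45 and a 95% interval of -0.33 to 1.22. Wnt5b had 0.824 and 0.422 CPM in PM2.5 libraries and 0.684 and 0.31 CPM in Control libraries, with a log2 fold change of 0.42 and an interval of -0.77 to 1.61. The groups overlapped for both genes, and neither passed the threshold on raw counts. With total gene reads Wnt5b passed, with 254 and 263 reads in PM2.5 libraries and 193 and 221 in Control libraries (log2 fold change 0.45, adjusted p = 0.028). Wnt5b overlaps Fbxl14, its raw counts were 4.84% of its total gene reads in PM2.5 libraries and 5.07% in Control libraries, and whether counting used strand is not given in the sources used here. Wnt10a, the family member closest to Wnt10b, had 0 and 1 counts in PM2.5 libraries and 7 and 10 counts in Control libraries. Scaled for library size, PM2.5 over Control was 0.0665 (95% counting interval 0.00159 to 0.425). Wnt7b had 6 and 6 counts in PM2.5 libraries and 2 and 1 counts in Control libraries, a ratio of 4.52 with a counting interval of 1.22 to 24.99. Both were below the filter. Wnt1, Wnt3a, Wnt4, Wnt6, Wnt8a, Wnt8b, Wnt11 and Wnt16 had at most 5 counts in any library, and Wnt2, Wnt3, Wnt7a and Wnt9b had 0 counts throughout. At this depth 0 counts limits a transcript to less than the CPM range above; it does not show absence.

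Among the Frizzled genes, whose products are the membrane receptors for Wnt ligands, 7 of 10 were tested; 3 were higher in PM2.5 and 1 was lower. Fzd6 had 15.8 and 16.8 CPM in PM2.5 libraries, against 8.10 and 7.60 CPM in Control libraries. The groups were far apart, with a log2 fold change of 1.06 (standard error 0.12, adjusted p = 7.532e-05 in edgeR). Fzd6 is known for its role in planar cell polarity and hair patterning. Fzd5 had 26.8 and 26.7 CPM in PM2.5 libraries and 17.6 and 17.1 CPM in Control libraries, a log2 fold change of 0.62 (standard error 0.09, adjusted p = 0.0003546 in edgeR). Fzd8 was scarce, with 35 and 32 counts in PM2.5 libraries and 9 and 16 counts in Control libraries. Its ratio was 3.03 with a 95% counting interval of 1.89 to 5.01, and its log2 fold change was 1.59 (standard error 0.35, adjusted p = 0.004601 in edgeR; DESeq2 adjusted p = 0.0525). Fzd4, which also serves as the receptor of the non-Wnt ligand norrin, went the other way. It had 25.5 and 27.9 CPM in PM2.5 libraries and 36.5 and 40.6 CPM in Control libraries. Both PM2.5 libraries were below both Control libraries, with a log2 fold change of -0.53 (standard error 0.09, adjusted p = 0.0009141 in edgeR).

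Fzd2, Fzd7 and Fzd3 did not pass the threshold. Fzd2 had 45.4 and 45.5 CPM in PM2.5 libraries and 45.4 and 45.3 CPM in Control libraries, and the 95% interval of its log2 fold change was -0.15 to 0.15. It was the most abundant Frizzled transcript per length, with 10.4 and 10.5 RPKM in PM2.5 libraries and 10.3 RPKM in both Control libraries. It held 39.5% and 38.9% of the summed Frizzled RPKM in PM2.5 libraries and 43.3% and 41.0% in Control libraries. Below it in PM2.5 came Fzd7 at 5.04 RPKM on average, then Fzd4 at 3.36, Fzd5 at 3.26 and Fzd6 at 2.95. In Control libraries Fzd4 (4.77 RPKM) and Fzd7 (4.49 RPKM) came next, ahead of Fzd5 (2.09 RPKM) and Fzd6 (1.40 RPKM). Fzd4 and Fzd7 overlapped in Control, and the PM2.5 values of Fzd4 spanned those of Fzd5. The interval for Fzd7 was -0.10 to 0.36, and without Control replicate 2 its log2 fold change was 0.29 (adjusted p = 0.0428). For Fzd3 it was -0.12 to 0.28. Fzd1 and Fzd10 had 0 counts in every library, and Fzd9 had at most 2 in any.

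The co-receptors Lrp5 and Lrp6, single-pass receptors that pair with Frizzled, were both expressed. Lrp5 had 213 and 242 CPM in PM2.5 libraries, against 169 and 192 CPM in Control libraries. The groups did not overlap, and the log2 fold change was 0.33 (standard error 0.08, adjusted p = 0.006459 in edgeR); without PM2.5 replicate 2 the call ended (adjusted p = 0.0667). Lrp6 had 107 and 115 CPM in PM2.5 libraries and 118 and 123 CPM in Control libraries. It did not pass the threshold, with an interval of -0.25 to 0.02. Lrp5 made up 65.7% and 67.0% of the summed RPKM of the pair in PM2.5 libraries, against 58.0% and 60.2% in Control libraries.

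R-spondins, secreted proteins that strengthen Wnt signals by keeping Frizzled on the surface, were nearly undetected. Rspo1 had 8 and 6 counts in PM2.5 libraries and 1 and 0 counts in Control libraries. The ratio of 15.8 has a 95% counting interval of 2.41 to 670, and the gene was below the filter. With total gene reads Rspo1 had 11 and 14 in PM2.5 libraries and 7 and 5 in Control libraries. It was not called on that count (log2 fold change 1.18, adjusted p = 0.0967 in edgeR). Rspo4 had at most 4 counts in any library, and Rspo2 and Rspo3 had 0 in all. Of the R-spondin receptors, Lgr4 was the only abundant one, with 29.4 and 32.4 CPM in PM2.5 libraries and 26.3 and 28.4 CPM in Control libraries. Its interval was -0.03 to 0.36 and it did not pass. Lgr6 had 12 and 17 counts in PM2.5 libraries and 8 and 7 counts in Control libraries, with a log2 fold change of 1.11 (standard error 0.50, adjusted p = 0.101 in edgeR). With total gene reads, in which 39.3% of all genes tested were called, Lgr6 passed (log2 fold change 1.96, adjusted p = 0.00476). Lgr5, a marker of several epithelial stem cells, had 0 counts in all libraries.

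Znrf3 and Rnf43 encode ubiquitin ligases that clear Frizzled from the membrane and are opposed by R-spondins. Znrf3 had 22.4 and 22.9 CPM in PM2.5 libraries, against 27.8 and 26.9 CPM in Control libraries. Its groups did not overlap, and the log2 fold change was -0.27 (standard error 0.08, adjusted p = 0.02682 in edgeR). The call on Znrf3 was the least stable of the 17 and ended under 9 of 16 alternatives, among them DESeq2 (adjusted p = 0.139) and leaving out Control replicate 1, PM2.5 replicate 1 or PM2.5 replicate 2 (adjusted p from 0.0667 to 0.131). Rnf43 had 5.48 and 5.32 CPM in PM2.5 libraries and 4.73 and 4.03 CPM in Control libraries, with an interval of -0.07 to 0.70, and did not pass.

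Secreted antagonists were dominated by Sfrp2, a decoy that binds Wnt ligands outside the cell. Sfrp2 had 137 and 136 CPM in PM2.5 libraries, against 315 and 310 CPM in Control libraries. The replicates of each group lay close together and the groups far apart, with a log2 fold change of -1.19 (standard error 0.05, adjusted p = 1.849e-07 in edgeR). Sfrp2 lies on chromosome 3, 83673628 to 83681623, plus strand, on GRCm39. On the RPKM scale it had 57.8 and 57.6 in PM2.5 libraries and 131 and 129 in Control libraries. In Control it stood close to Ctnnb1 (141 and 137 RPKM), and in PM2.5 well below it (148 and 151 RPKM). Sfrp2 was 95.5% to 96.0% of the summed RPKM of the 10 antagonists in PM2.5 libraries and 97.4% in both Control libraries.

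Notum, an enzyme that inactivates Wnt ligands by removing their lipid, was lower too. It had 6.30 and 6.90 CPM in PM2.5 libraries and 9.31 and 9.04 CPM in Control libraries. The groups did not overlap, and the log2 fold change was -0.47 (standard error 0.14, adjusted p = 0.01932 in edgeR). The Notum call ended with DESeq2 (adjusted p = 0.135) and when PM2.5 replicate 1 was dropped (adjusted p = 0.121). The other 8 antagonists were not tested. Dkk3, a divergent member of the Dickkopf family, had 5 and 11 counts in PM2.5 libraries and 5 and 6 counts in Control libraries. Sfrp1, Sfrp4, Sfrp5, Dkk2 and Dkk4 had at most 3 counts in any library, and Dkk1 and Wif1 had 0 in all.

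**Figure D3:**
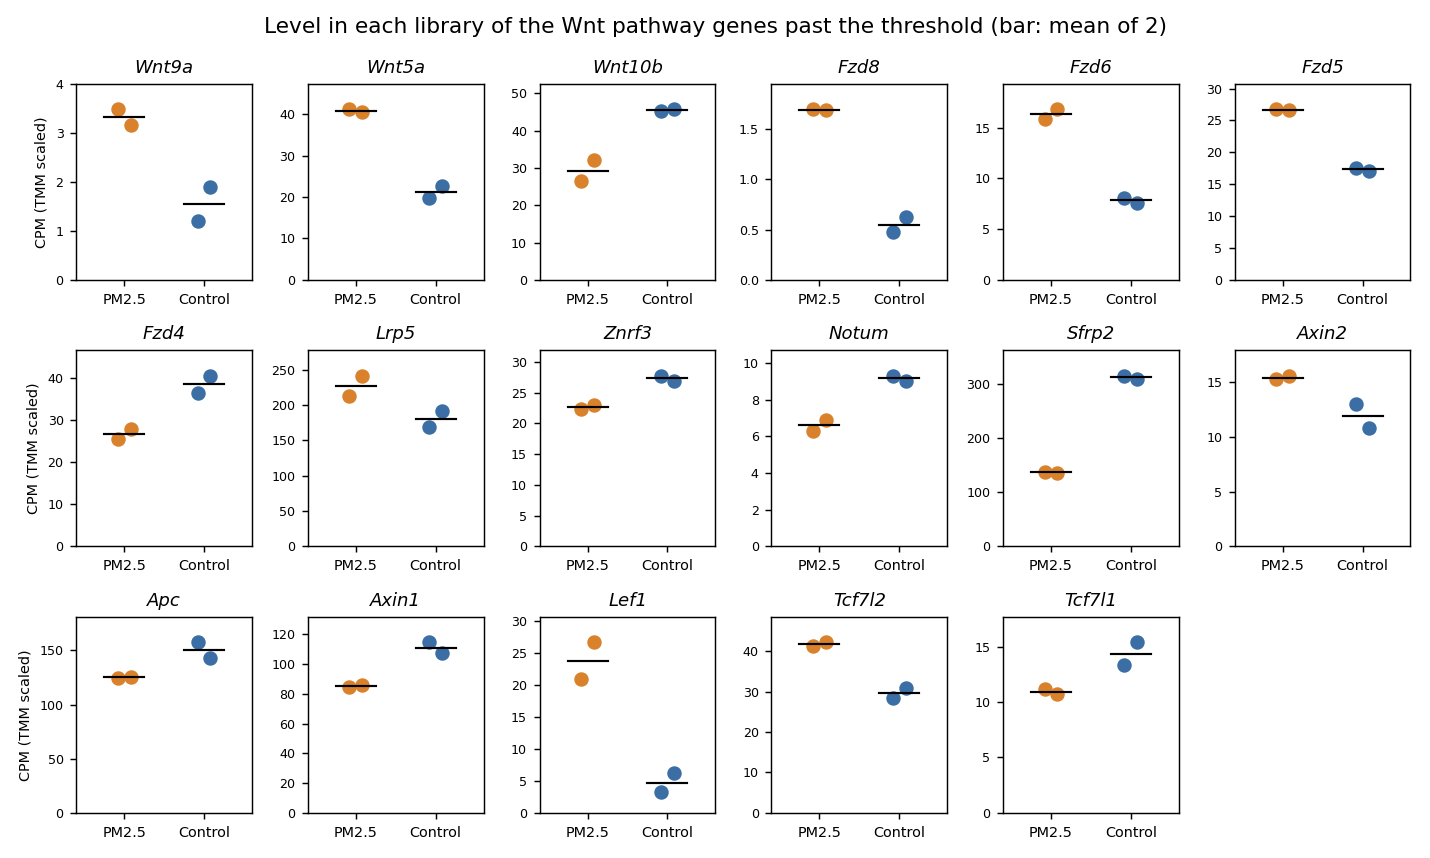
CPM in each library (points) and group mean (bar) for the 17 Wnt pathway genes past the threshold, each panel on its own axis from 0. In each panel the PM2.5 and Control points are apart, as for Sfrp2 (137 and 136 CPM in PM2.5 against 315 and 310 CPM in Control) and Lef1 (20.9 and 26.7 CPM in PM2.5 against 3.31 and 6.17 CPM in Control). The 17 were picked by the test on these same values, and the groups did not overlap for 71.0% of all genes tested.

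The scaffolds of the destruction complex were lower while Axin2, a scaffold that is also a feedback target of beta-catenin, was higher. Axin1 had 84.5 and 86.1 CPM in PM2.5 libraries, against 115 and 107 CPM in Control libraries. It was lower in both PM2.5 libraries, with a log2 fold change of -0.38 (standard error 0.06, adjusted p = 0.0008008 in edgeR). Apc, the tumour suppressor that holds beta-catenin in the complex, had 124 and 126 CPM in PM2.5 libraries and 157 and 143 CPM in Control libraries. Its log2 fold change was -0.26 (standard error 0.06, adjusted p = 0.007586 in edgeR), and its groups did not overlap. The Apc call ended with limma-trend on RPKM (adjusted p = 0.052 with a pseudocount of 0.1 and 0.0553 with 1). It also ended when set against its neighbours on the chromosome (log2 fold change -0.08, adjusted p = 0.39 in edgeR). Axin2 had 15.3 and 15.6 CPM in PM2.5 libraries, against 13.0 and 10.8 CPM in Control libraries. Its log2 fold change was 0.38 (standard error 0.12, adjusted p = 0.02779 in edgeR), with no overlap between groups. The Axin2 call ended under 7 of 16 alternatives, among them DESeq2 (adjusted p = 0.165), no filter (adjusted p = 0.0532) and leaving out Control replicate 2 (log2 fold change 0.24, adjusted p = 0.186) or either library of the PM2.5 group (adjusted p of 0.0751 without replicate 1 and 0.104 without replicate 2). Ctnnb1, which encodes beta-catenin, had 760 and 773 CPM in PM2.5 libraries and 737 and 712 CPM in Control libraries. It did not pass, with an interval of -0.04 to 0.20, although scaling to library size only gave an adjusted p of 0.0449. RNA levels do not report the amount or location of the beta-catenin protein, which is where the pathway is known to be controlled.

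The makeup of the TCF/LEF factors, the DNA-binding partners of beta-catenin, shifted towards Lef1. Lef1 had 20.9 and 26.7 CPM in PM2.5 libraries, against 3.31 and 6.17 CPM in Control libraries. The libraries within a group differed, more so in Control, yet the groups were far apart, with a log2 fold change of 2.27 (standard error 0.21, adjusted p = 2.249e-05 in edgeR). Leaving out each library in turn gave log2 fold changes of 1.94 to 2.83. Lef1 lies on chromosome 3, 130904120 to 131018005, plus strand, on GRCm39. Tcf7l2 had 41.2 and 42.2 CPM in PM2.5 libraries and 28.4 and 30.9 CPM in Control libraries, a log2 fold change of 0.49 (standard error 0.08, adjusted p = 0.0007859 in edgeR). Tcf7l1, a factor known mainly as a repressor of Wnt targets, had 11.1 and 10.7 CPM in PM2.5 libraries and 13.3 and 15.4 CPM in Control libraries. It was lower in both PM2.5 libraries (log2 fold change -0.40, SE 0.12, adjusted p = 0.0222 in edgeR), a call that ended with DESeq2 (adjusted p = 0.121) and on leaving out Control replicate 2, PM2.5 replicate 1 or PM2.5 replicate 2 in turn (adjusted p from 0.0579 to 0.128). Tcf7 had 25.4 and 29.5 CPM in PM2.5 libraries and 28.0 and 30.7 CPM in Control libraries. These overlapped, with an interval of -0.32 to 0.11.

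Per length, Lef1 was the least abundant of the 4 factors in Control libraries and ranked above Tcf7l1 in PM2.5 libraries. It had 5.04 and 6.44 RPKM in PM2.5 libraries, against 0.785 and 1.46 RPKM in Control libraries. Tcf7l1 had 3.05 and 2.94 RPKM in PM2.5 libraries and 3.58 and 4.16 RPKM in Control libraries. Tcf7 was the most abundant in Control at 7.70 and 8.47 RPKM, with 7.08 and 8.28 RPKM in PM2.5 libraries, where Tcf7l2 (6.996 and 7.197 RPKM) overlapped it. The RPKM of the 4 factors summed to 22.2 and 24.8 in PM2.5 libraries and to 16.8 and 19.3 in Control libraries. Lef1 held 22.7% and 25.9% of that sum in PM2.5 libraries, against 4.67% and 7.60% in Control libraries. Raw counts of Tcf7l2 were 50.7% of its total gene reads in PM2.5 libraries and 51.0% in Control libraries, lower than for the other 3 factors; its call held with total gene reads (adjusted p = 0.00127).

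**Figure D4:**
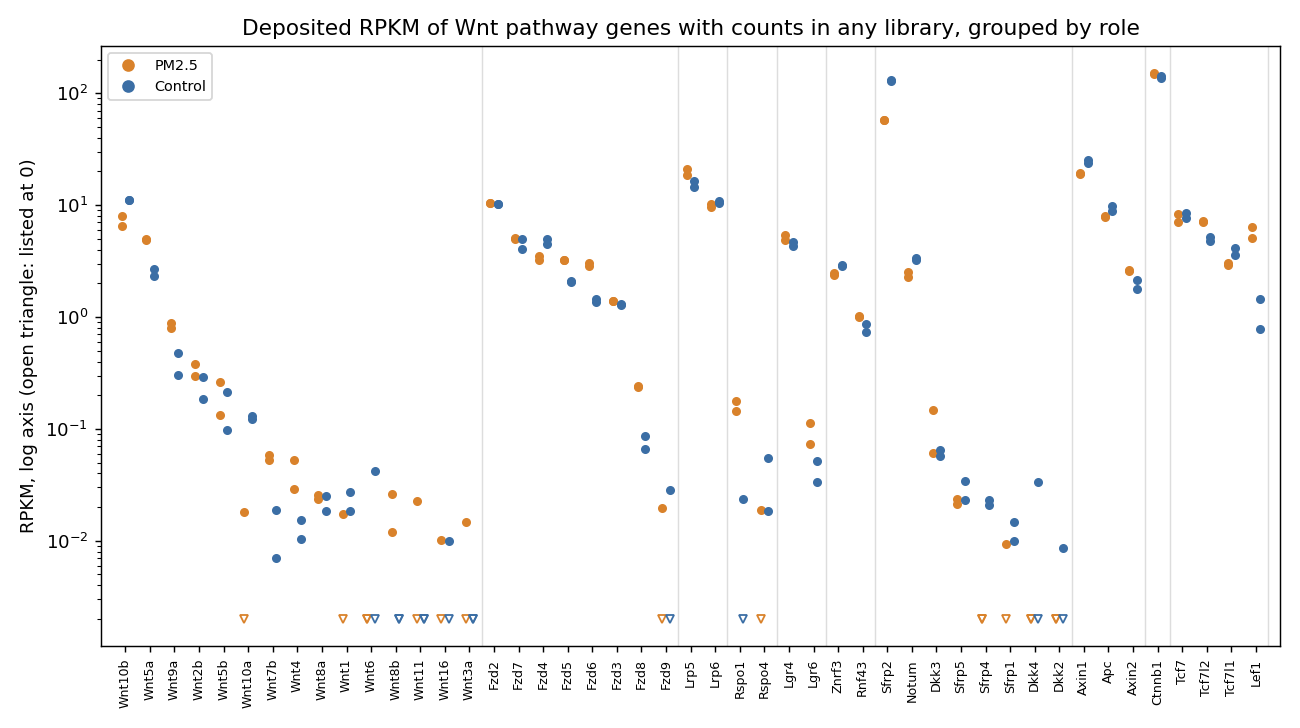
Deposited RPKM on a log axis for each library, for the 47 Wnt pathway genes with counts in any library, ordered by mean level within each role; open triangles mark values listed at 0. Ctnnb1 and Sfrp2 are the most abundant, and Sfrp2 is at 57.8 and 57.6 RPKM in PM2.5 libraries and 131 and 129 RPKM in Control libraries.

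Position on the chromosome moved with some of these results. The log2 fold changes of neighbouring genes were not centred on 0 everywhere, and the median of the 25 tested genes on either side was taken for each gene. It was -0.23 around Znrf3, -0.18 around Notum and Axin1, -0.19 around Apc and -0.11 around Tcf7l1, all lower in PM2.5 like the genes themselves. When each gene was set against that median, the calls on Apc (log2 fold change -0.08, adjusted p = 0.39), Znrf3 (-0.04, adjusted p = 0.721), Notum (-0.29, adjusted p = 0.127) and Tcf7l1 (-0.29, adjusted p = 0.0896) ended. That on Axin1 held at a log2 fold change of -0.20. The neighbourhoods of Sfrp2 (0.10), Wnt10b (0.05) and Fzd4 (0.14) lay slightly above 0, and that of Axin2 (-0.11) slightly below, each opposite to the gene's own change. For Lef1 (0.14) and Wnt5a (0.21) the neighbourhood median had the sign of the gene and was smaller. Fzd3, in a neighbourhood raised by 0.36, was lower against it (log2 fold change -0.28, adjusted p = 0.0371).

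**Figure D5:**
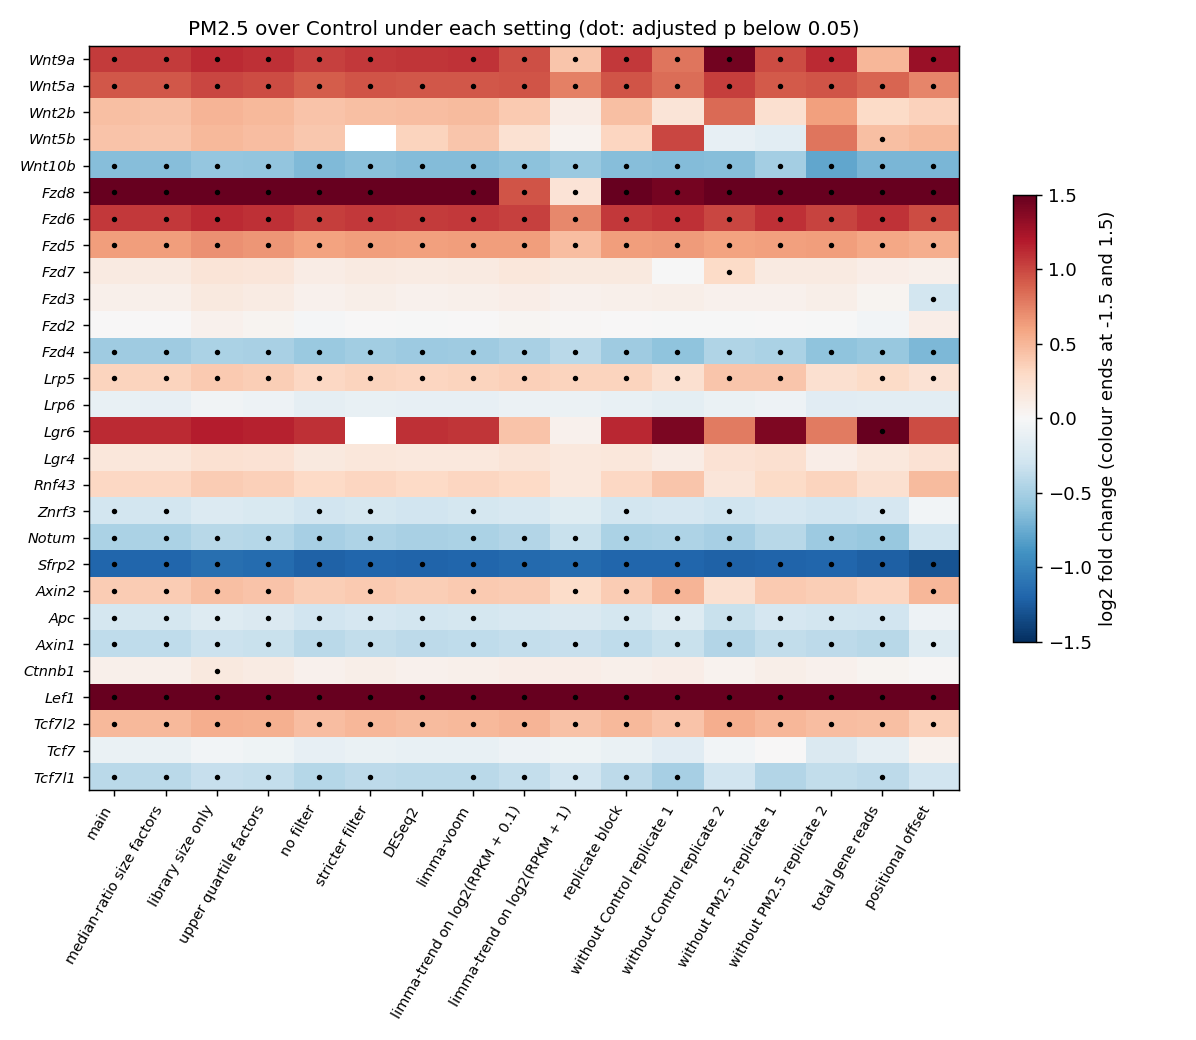
Log2 fold change of PM2.5 over Control for the 28 tested Wnt pathway genes (rows) under the main setting and 16 alternatives (columns); a dot marks an adjusted p below 0.05 and white cells could not be fitted. Lef1, Wnt5a, Fzd6, Fzd5, Tcf7l2, Sfrp2, Wnt10b, Fzd4 and Axin1 have a dot in every column, and Znrf3 and Axin2 lose theirs in 9 and 7 columns.

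Other genes of the pathway were read from 7 lists by function, against the same background of 39.6% of all genes called. That background was 25% with DESeq2 and 32.3% against the neighbourhoods. It was also below 39.6% with any 1 library left out, so list counts under those settings are read beside a lower share. Among extracellular modulators, 6 of 11 tested genes (of 21 listed) were higher and 1 was lower. Igfbp4, an insulin-like growth factor binding protein that also binds Frizzled and Lrp6, had 1283 and 1496 CPM in PM2.5 libraries and 779 and 747 CPM in Control libraries. The log2 fold change of Igfbp4 was 0.86 (standard error 0.07, adjusted p = 1.662e-05 in edgeR), and both PM2.5 libraries were above both Control libraries. The cell-surface proteoglycan Gpc1 (log2 fold change 0.74), the Wnt antagonist Apcdd1 (0.63) and Trabd2b (0.59), a protease that inactivates Wnt ligands, were also higher. The median log2 fold change of the 11 was 0.59, against 0.01 over all genes tested. Gpc6 was the lower member (-0.45), and the receptor partners Adgra2 and Tspan12 completed the higher ones; these 3 were named after their values were seen. The Adgra2 call ended with DESeq2 (adjusted p = 0.171) and on leaving out Control replicate 2 or PM2.5 replicate 2, and that on Tspan12 with DESeq2 (adjusted p = 0.294) and on leaving out any 1 library.

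In the ligand secretion list, 3 of 9 were higher and 2 lower. Only 1 was higher against the neighbourhoods or with PM2.5 replicate 2 left out, and 1 was lower with Control replicate 2 or either PM2.5 replicate left out. Porcn, the enzyme that attaches the lipid Wnt ligands need, had 11.9 and 11.8 CPM in PM2.5 libraries, against 4.89 and 7.72 CPM in Control libraries. Its log2 fold change was 0.88 (standard error 0.18, adjusted p = 0.003275 in edgeR). Wls, the carrier that brings Wnt ligands to the surface, had 272 and 283 CPM in PM2.5 libraries and 224 and 238 CPM in Control libraries, with a log2 fold change of 0.26. The call on Wls ended against its neighbourhood (adjusted p = 0.0993) and without PM2.5 replicate 2 (adjusted p = 0.0527). Vps35 and Vps29, retromer subunits that recycle Wls, had log2 fold changes of -0.44 and -0.20; the Vps35 call ended against its neighbourhood (adjusted p = 0.125), and the Vps29 call ended under 9 alternatives, DESeq2 among them (adjusted p = 0.118). The third higher member was Tmed2 (log2 fold change 0.16, adjusted p = 0.0464), named after its value was seen, whose call ended against its neighbourhood (adjusted p = 0.267), with DESeq2 (adjusted p = 0.0755) and on leaving out Control replicate 1 or either PM2.5 replicate (adjusted p from 0.146 to 0.291).

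Among cytoplasmic transducers 7 of 19 tested genes were lower and 1 higher, which is 42.1% and near the background of 39.6%. The count of lower ones was 2 without PM2.5 replicate 1, and scaling to library size only gave 5 lower and 3 higher. Ppp2ca, a phosphatase subunit, had 250 and 248 CPM in PM2.5 libraries and 303 and 302 CPM in Control libraries, and a log2 fold change of -0.28. Gsk3b, the kinase that marks beta-catenin for degradation, had a log2 fold change of -0.27, the casein kinase gene Csnk1d one of -0.27 and Fbxw11, which encodes a substrate receptor of the degrading ligase, one of -0.24. Against their neighbourhoods only 2 of the list were lower, and the calls on these 4 ended (adjusted p from 0.0511 to 0.676). Those on Csnk1d (adjusted p = 0.0511) and Fbxw11 (adjusted p = 0.0673) also ended without PM2.5 replicate 1. Btrc, a relative of Fbxw11, was the higher member, named after its value was seen. DESeq2 did not call Btrc (adjusted p = 0.105), nor did edgeR with Control replicate 2 dropped (adjusted p = 0.0693), with PM2.5 replicate 2 dropped (adjusted p = 0.13) or against its neighbourhood (adjusted p = 0.159). Among nuclear cofactors 3 of 16 were higher and 3 lower (37.5% called), the lower ones including Tle1 and Ctbp2, named after their values were seen. DESeq2 called neither Tle1 (adjusted p = 0.154) nor Ctbp2 (adjusted p = 0.0584). Against its neighbourhood Tle1 changed sign (log2 fold change 0.14, adjusted p = 0.245), while the Ctbp2 call held (-0.32, adjusted p = 0.0135). Ctbp2 was not called with total gene reads (adjusted p = 0.0872). Scaling to library size only ended both calls (adjusted p = 0.127 for Tle1 and 0.0711 for Ctbp2). The Tle1 and Ctbp2 calls also ended without Control replicate 1 or PM2.5 replicate 1, and that on Ctbp2 without PM2.5 replicate 2. With a library left out, log2 fold changes ran from -0.34 to -0.15 for Tle1 and from -0.38 to -0.15 for Ctbp2. The counts of this list were not stable, while fewer of all genes were also called with DESeq2 or with a library left out. Without PM2.5 replicate 1 there were 1 higher and 0 lower in edgeR (3 and 2 at an unadjusted p below 0.05), and without PM2.5 replicate 2 there were 0 higher and 2 lower (3 and 4 unadjusted). Without Control replicate 1 there were 3 higher and 1 lower, without Control replicate 2 there were 3 and 5, with DESeq2 2 and 1, and scaling to library size only gave 6 and 1. The related acetyltransferases Ep300 (log2 fold change 0.27) and Crebbp (-0.29) went opposite ways, and the Crebbp call ended against its neighbourhood (0.03, adjusted p = 0.766) and without PM2.5 replicate 1 (adjusted p = 0.0791), while that on Ep300 was lost once PM2.5 replicate 2 was dropped (adjusted p = 0.0524). The corepressor gene Tle3 (0.23) and the chromatin remodeller Chd8 (0.19) were higher, calls that ended against their neighbourhoods and with either PM2.5 library left out.

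Of the list for planar polarity and other signalling outside beta-catenin, 2 of 13 were higher and 3 lower, and without PM2.5 replicate 2 there were 1 and 1. Without Control replicate 2 or PM2.5 replicate 1 the lower count was 2. Daam2, which links Dishevelled to actin, had 27.1 and 28.6 CPM in PM2.5 libraries, against 57.8 and 50.3 CPM in Control libraries. It was lower in both PM2.5 libraries, with a log2 fold change of -0.95 (standard error 0.09, adjusted p = 2.208e-05 in edgeR). Prickle1, a core polarity gene, rose by 0.90 on the log2 scale (standard error 0.13, adjusted p = 0.0003295 in edgeR), and its relative Prickle2 by 1.84 (SE 0.45), which was no longer past the threshold once PM2.5 replicate 2 was left out (log2 fold change 1.11, adjusted p = 0.108). Wdpcp fell by 0.44 on the log2 scale (adjusted p = 0.01122 in edgeR), a call lost against its neighbourhood (log2 fold change -0.22, adjusted p = 0.169), with total gene reads (-0.19, adjusted p = 0.162), with DESeq2 (adjusted p = 0.0784) and without PM2.5 replicate 2 (adjusted p = 0.0563). The fifth was Invs, lower (log2 fold change -0.24) and named after its value was seen. The Invs call ended with DESeq2 (adjusted p = 0.154) and on leaving out Control replicate 2 or either PM2.5 replicate. Against its neighbourhood Invs was called higher (log2 fold change 0.26, adjusted p = 0.0326). Ryk, a receptor for Wnt5a, had 135 and 133 CPM in PM2.5 libraries and 137 and 139 CPM in Control libraries and did not pass. Ror2, another Wnt5a receptor, was at 0.0527 CPM in PM2.5 replicate 2 and at 0 in the other 3 libraries. Ror1, in the same list and not tested, had 9 and 10 counts in PM2.5 libraries and 2 and 7 in Control libraries. Ryk, Ror2 and Ror1 were named after their values were seen. Among 7 tested genes of receptor turnover 2 were lower, Cav1 (log2 fold change -0.36) and Clint1 (-0.30); the Clint1 call ended against its neighbourhood (adjusted p = 0.236).

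Textbook targets of beta-catenin went both ways, and the share called, 42.1%, was near the background of 39.6%. Of 29 listed, 19 were tested, 4 were higher and 4 lower, and the median log2 fold change was 0.03, against 0.01 over all genes tested. The lower count was 2 with DESeq2, against the neighbourhoods, and without Control replicate 1, PM2.5 replicate 1 or PM2.5 replicate 2. The list holds 8 of the 58 genes described above, among them Lef1 and Axin2, which were higher, and Notum and Znrf3, which were lower. Of the others, Apcdd1 was higher, as given above, and the cell cycle gene Ccnd1 had 620 and 590 CPM in PM2.5 libraries and 514 and 461 CPM in Control libraries. The log2 fold change of Ccnd1 was 0.31 (standard error 0.06, adjusted p = 0.003428 in edgeR). The ephrin receptor gene Ephb2 had 44.2 and 43.6 CPM in PM2.5 libraries, against 75.4 and 64.0 CPM in Control libraries. Its log2 fold change was -0.66 (standard error 0.08, adjusted p = 0.0001662 in edgeR), with both PM2.5 libraries below both Control libraries. The remaining lower target was Myc (-0.31, adjusted p = 0.02027), named after its value was seen. Myc was not called with Control replicate 1 dropped (adjusted p = 0.0793), nor with PM2.5 replicate 2 dropped (adjusted p = 0.166). Lgr5, Nkd1, Dkk1, Bambi, Tnfrsf19, Mmp7 and Cdx2 had 0 counts in every library.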

How the data were processed

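Stranded polyA RNA-seq libraries were made from 750 ng of total RNA, per the labels' protocols. The authors deposited raw, unnormalised counts for each gene. RPKM values and a wider count, total gene reads, were deposited by the authors per library, and the file headers do not define total gene reads further. The build is GRCm39, per the submitters' processing notes. Neither aligner nor annotation release nor strand setting was found: not given in the sources used here.

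Raw counts were tested with edgeR 4.0.16 in R 4.3.3 (filterByExpr, TMM factors of 0.973 to 1.02, quasi-likelihood F test, no replicate block), with Benjamini-Hochberg adjustment over 12478 genes. Where no tool is named, an adjusted p comes from edgeR. CPM is TMM scaled, SE divides the log2 fold change by the root of F, and intervals are 95%. For genes with under 400 counts, exact intervals of the ratio cover counting error only. The procedure was tested on simulated data.

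Alternatives were median-ratio factors, library size only, upper quartile, no filter, a stricter filter (at least 1 CPM in 2 libraries, total of at least 50 counts), DESeq2 1.42.0, limma-voom (limma 3.58.1), limma-trend on RPKM (log2 scale, pseudocount 0.1 or 1), a replicate block, each library left out, total gene reads and a positional offset. All members were accounted for, and up to 4 called genes per list with the smallest p were named. The members, lists and alternatives were chosen with earlier results of these data known.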

Additional observations from a re-analysis of the deposited data

Results flagged for a closer look

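Reads outside the main count were higher in PM2.5 for 3 Wnt ligands that the main test left out. The authors' total gene reads, never below the raw count of a gene and not defined in the file headers, were fitted in the same way (13928 genes tested, 39.3% called). Rspo1, Dkk3 and Rspo4, which the main test also left out, were fitted too and were not called. Their log2 fold changes were 1.18 (adjusted p = 0.0967), 0.46 (adjusted p = 0.207) and -0.42 (adjusted p = 0.259) in edgeR.

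Wnt7b, a ligand known from branching epithelia, had 39 and 47 such reads in PM2.5 libraries and 4 and 4 in Control libraries, a log2 fold change of 3.52 (standard error 0.43, adjusted p = 0.0003134 in edgeR). Wnt4, a ligand known as a progesterone target in the mammary gland, had 28 and 56 in PM2.5 libraries and 9 and 8 in Control libraries, a log2 fold change of 2.42 (standard error 0.51, adjusted p = 0.005136 in edgeR). Wnt6 had 30 and 25 in PM2.5 libraries and 7 and 5 in Control libraries, a log2 fold change of 2.31 (standard error 0.43, adjusted p = 0.002692 in edgeR). The raw counts of the same genes were 0 to 6 in PM2.5 libraries and 0 to 2 in Control libraries, so most of these reads lie outside the raw count. What they are was not tested.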

How the results depend on the processing

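Of the 17 calls, 9 held under all 16 alternatives (Lef1, Wnt5a, Fzd6, Fzd5, Tcf7l2, Sfrp2, Wnt10b, Fzd4 and Axin1), and no called Wnt gene changed sign. Among all genes tested, DESeq2 called 10.5% higher and 14.5% lower, against 19.2% and 20.4% in the main fit. Total gene reads gave 18.8% higher, and the positional offset gave 16.1% lower. Fzd3, not called in the main fit, was among the genes called lower with the positional offset. The count of higher Wnt genes stayed within 6 (DESeq2) to 12 (total gene reads). The count of lower ones, 8, was 5 with DESeq2 and with the positional offset, and 5 (without PM2.5 replicate 1) to 7 with a library left out. Over all genes the count of 4939 was 3111 (without PM2.5 replicate 2) to 4841 with a library left out. Where a library was left out, the lone sample is assumed to vary like the other group. With the replicate number as a block 5792 genes were called, 9 of the Wnt genes higher and 8 lower. Deviations of same-numbered libraries correlated at 0.16 across genes, but the labels do not say that a number pairs samples.

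The Wnt genes that changed sign had not been called: Fzd2 (-0.018 with no filter, -0.0087 with DESeq2, -0.039 with total gene reads, -0.0044 to 0.0025 with a library left out), Fzd7 (-0.00062 to 0.29 with a library left out), Wnt5b (-0.16 to 1.01 with a library left out), Tcf7 (0.055 with the positional offset, -0.22 to 0.0020 with a library left out) and Fzd3 (-0.28 with the positional offset). From the lists, the called genes Fbxw11 (0.035), Crebbp (0.031), Tle1 (0.14) and Invs (0.26) changed sign with the positional offset. Invs then passed the threshold as higher (adjusted p = 0.0326). For Wnt5b and Lgr6 the stricter filter left no value. The cause of these differences was not tested. Depth limits Wnt9a, Fzd8, Wnt2b, Wnt5b and Lgr6, with under 400 counts in all.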
